A study of Homo sapiens with 12 samples.

Results

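The 10 genes described here belong to the Wnt pathway: the ligand gene WNT5A, the receptor gene FZD7, the antagonist gene DKK1, the scaffold gene AXIN1, CTNNB1 (beta-catenin), the transcription factor genes TCF7, LEF1, TCF7L1 and TCF7L2, and AXIN2, a negative regulator that is also a pathway target. They were taken by symbol from the deposited gene table, which lists 57773 genes. All 10 were found, and all 10 passed the filter on low counts. The cells were U87, a long-established line from a human glioblastoma. The resistant U87 cells, labelled as having acquired resistance to JQ1, had been exposed for 24 h to 1000 nM dBET6, to 1000 nM JQ1 or to DMSO, and the parental U87 cells to the same 3 treatments. Each of the 6 groups held 2 polyA RNA libraries, 12 in all, and every group had been grown in the same serum-containing medium. The labels do not say whether the libraries of a group came from separate cultures, whether the resistant line is a clone, or how it was derived, so the p-values cover the spread among these libraries and no more, and that spread may be technical.

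In canonical Wnt signalling a secreted Wnt protein binds a Frizzled receptor and an LRP co-receptor, which stops a cytoplasmic complex built on the Axin scaffolds from marking beta-catenin for destruction. Stabilised beta-catenin then enters the nucleus and acts with the TCF and LEF proteins on target genes, AXIN2 among them. JQ1 occupies the bromodomains with which BET proteins read acetylated chromatin. dBET6 joins a BET ligand derived from JQ1 to a ligand of cereblon, part of a ubiquitin ligase, so that BET proteins are degraded. Wnt activity has been described in leukaemia as a route to BET inhibitor resistance.

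The libraries held 24732177 to 29041636 estimated counts with dBET6 and 31346557 to 40388589 with JQ1 or DMSO. VIM, CD44 and TNC, genes of mesenchymal glioma cells, were at 2910 to 11100, 242 to 628 and 21.3 to 196 FPKM, the deposited unit per transcript length. GFAP was at 1.58 to 6.39 FPKM, OLIG2, SOX2 and SOX10 had medians of 0.108, 0.0193 and 0.0314 FPKM, and PTPRC and CD3E had medians of 0.0693 and 0 FPKM. The 50 most abundant genes took 24.4% to 29.5% of the counts with dBET6, against 11.9% to 17.7% otherwise, and mitochondrial mRNAs took 3.02% to 3.75% against 1.4% to 2.59%. Levels below are CPM, counts scaled to a common library size, with TMM factors, which set the bulk of genes equal between libraries. Scaling to total counts instead moved the median of all tested genes for dBET6 against DMSO to -1.14 (log2) in resistant cells and -0.65 in parental cells, and scaling to mitochondrial mRNA moved it to -2.12 and -1.78. The share of higher genes among all called genes was then 22.5% and 30.6% with total counts and 8.94% and 11.4% with mitochondrial mRNA, against 47.5% and 48.5% with TMM. Summed leukocyte markers, of which PTPRC and CD3E were at most 0.238 and 0.101 FPKM, ran from 5.0 to 8.69 FPKM with dBET6 and from 0.137 to 0.413 FPKM otherwise through CD14 and CD79A, and the neuronal marker TUBB3 was also higher with both compounds; the FPKM scale itself differed between these libraries (the ratio of TPM to FPKM is given with the levels below), and their part in the results was not tested. In bulk RNA, fewer cells of a type and less RNA per cell cannot be told apart. All changes with dBET6 below are therefore changes relative to the bulk of genes, and how much RNA a cell held was not measured.

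Promoter sequences are shown for WNT5A, which fell with both compounds and has a pair of annotated starts, and for DKK1, whose response differed between the lines. They run from 250 bases before to 50 bases after the RefSeq start (GRCh38.p14), 5′ to 3′ on the gene's strand, and RefSeq promoters were matched for 8 of the 10 genes. Capitals mark CTTTGAA, which with CTTTGAT is a core that TCF and LEF proteins recognise. Both were searched on both strands, and 6.86% of 34796 promoters of this length hold at least 1 of them. Among the 8 genes only the DKK1 window holds a match, at position 156 counted from its 5′ end, and a match is a run of letters, not a shown site.
WNT5A upstream start, chr3:55487257-55487556, minus strand: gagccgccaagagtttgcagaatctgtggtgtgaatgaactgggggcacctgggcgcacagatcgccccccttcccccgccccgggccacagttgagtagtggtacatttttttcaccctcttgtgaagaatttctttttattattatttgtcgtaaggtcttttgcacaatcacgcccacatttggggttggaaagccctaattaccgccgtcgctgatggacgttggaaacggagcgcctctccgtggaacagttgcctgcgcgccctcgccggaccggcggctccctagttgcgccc
WNT5A downstream start, chr3:55481349-55481648, minus strand: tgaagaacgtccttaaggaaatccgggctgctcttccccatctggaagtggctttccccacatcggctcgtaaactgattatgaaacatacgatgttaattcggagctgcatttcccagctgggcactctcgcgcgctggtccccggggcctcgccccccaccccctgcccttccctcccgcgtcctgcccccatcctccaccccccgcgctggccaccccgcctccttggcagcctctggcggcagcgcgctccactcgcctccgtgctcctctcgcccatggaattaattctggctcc
DKK1, chr10:52314031-52314330, plus strand: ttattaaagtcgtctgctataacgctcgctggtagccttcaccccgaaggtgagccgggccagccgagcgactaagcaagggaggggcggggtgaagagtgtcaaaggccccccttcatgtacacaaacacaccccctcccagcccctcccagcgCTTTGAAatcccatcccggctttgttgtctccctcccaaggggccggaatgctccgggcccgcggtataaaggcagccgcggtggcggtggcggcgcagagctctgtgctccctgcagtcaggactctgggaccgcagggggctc

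WNT5A encodes a secreted ligand best known for signalling that does not need beta-catenin, and is linked to invasion in glioma. It fell with both compounds in both lines, and with dBET6 it was higher in resistant cells on the TMM scale. Resistant cells had 15.4 and 18.1 CPM with dBET6, 26.4 and 24.7 with JQ1, and 126 and 123 with DMSO. Parental cells had 10.4 and 8.13 CPM with dBET6, 24.2 and 22.9 with JQ1, and 117 and 122 with DMSO. No library given a compound reached the level of any DMSO library. Relative to DMSO, WNT5A was 7.41-fold lower with dBET6 in resistant cells (log2 fold change -2.89 ± 0.11 SE, adjusted p = 6.74e-19) and 12.8-fold lower in parental cells (-3.68 ± 0.11, adjusted p = 1.56e-20). With JQ1 it was 4.86-fold lower in resistant cells (-2.28 ± 0.1, adjusted p = 2.42e-16) and 5.05-fold lower in parental cells (-2.34 ± 0.1, adjusted p = 1.13e-16). The dBET6 responses of the lines differed by 0.79 ± 0.15 on the log2 scale (adjusted p = 0.000277), whereas the JQ1 responses differed by 0.06, with a 95% interval of -0.22 to 0.33. With dBET6, WNT5A was 1.81-fold higher in resistant cells (0.85 ± 0.12, adjusted p = 2.14e-06), and with mitochondrial scaling that difference was 0.33 (adjusted p = 0.223). Scaled to total counts the dBET6 difference was 0.36 (adjusted p = 0.0508) and scaled to mitochondrial mRNA 0.51 (adjusted p = 0.252). Against JQ1, dBET6 lowered WNT5A by 0.61 ± 0.11 (log2) in resistant cells and by 1.35 ± 0.11 in parental cells. The deposited FPKM values put the resistant difference at -0.05 (log2 of FPKM plus 1, limma adjusted p = 0.791 with no filter and 0.668 with a mean of at least 1), and a filter of at least 10 CPM put it at -0.21 (adjusted p = 0.0679).

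WNT5A lies on chromosome 3 at 55465715 to 55490539 on the minus strand (GRCh38), and the non-coding gene WNT5A-AS1 starts 393 bases from its upstream RefSeq start on the other strand. WNT5A-AS1 had 0.687 and 0.312 CPM in resistant cells with dBET6, 1.59 and 1.21 with JQ1, and 6.16 and 6.84 with DMSO. Parental cells had 0.38 and 0.466 CPM with dBET6, 2.6 and 1.8 with JQ1, and 6.69 and 8.64 with DMSO. It fell in the same 4 comparisons as WNT5A, with log2 fold changes of -3.72 ± 0.31 and -4.17 ± 0.3 with dBET6 in resistant and parental cells, and -2.21 ± 0.21 and -1.79 ± 0.2 with JQ1. The exons of the 2 genes share 0 bases. Within WNT5A, the transcripts WNT5A-205 and WNT5A-203, which start close to the downstream RefSeq start, carried most of the transcript level in every library. WNT5A-202, which starts upstream at 55489945, held 5.67% and 16.5% of WNT5A TPM in resistant cells with dBET6 against 28% and 32.5% with DMSO, and 17.3% and 17.8% in parental cells with dBET6 against 28% and 29.1% with DMSO.

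**Figure D1:**
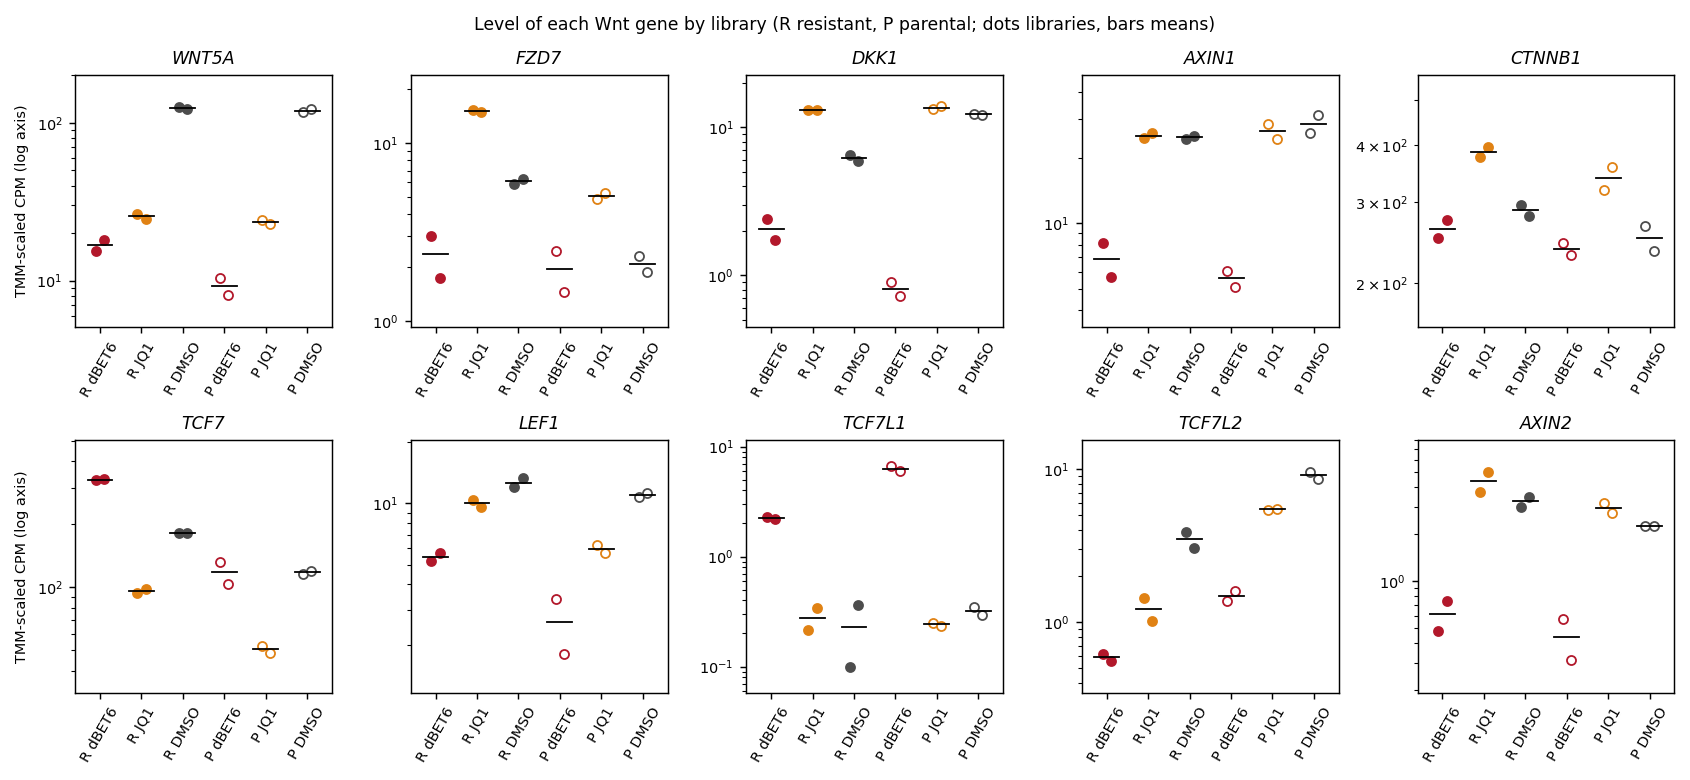
TMM-scaled CPM of each gene on a log axis, with dots for the 2 libraries of a group and bars for their mean, resistant (R) cells left of parental (P) cells. WNT5A falls with both compounds, TCF7L1 is above 2 CPM only in the 4 dBET6 libraries, and TCF7L2 is lower in resistant cells at every treatment.

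FZD7 encodes a Frizzled receptor for Wnt ligands. JQ1 raised it in both lines, and resistant cells held more of it with DMSO and with JQ1. With dBET6 both lines were at about the same low level, which parental cells also had with DMSO. In resistant cells the values were 3.02 and 1.74 CPM with dBET6, 15.4 and 15 with JQ1, and 5.92 and 6.24 with DMSO. In parental cells they were 2.47 and 1.45 CPM with dBET6, 4.87 and 5.22 with JQ1, and 2.31 and 1.88 with DMSO. The dBET6 libraries of both lines overlapped each other and the parental DMSO libraries, and all other groups were apart. JQ1 raised FZD7 by 1.32 ± 0.16 (log2, adjusted p = 1.3e-07) in resistant cells and by 1.26 ± 0.19 (adjusted p = 3.32e-06) in parental cells. The gene was 2.89-fold higher in resistant than in parental cells with DMSO (adjusted p = 1.68e-07) and 3.01-fold higher with JQ1 (adjusted p = 1.34e-08). With dBET6 the lines differed by 0.26 (log2), with an interval of -0.3 to 0.81. Relative to DMSO, dBET6 lowered FZD7 by 1.36 ± 0.22 in resistant cells (adjusted p = 2.87e-06), and in parental cells the difference was -0.09, with an interval of -0.57 to 0.4. These responses differed by -1.28 ± 0.33 (adjusted p = 0.00411), a difference that missed the threshold without the first parental dBET6 library (-0.82, adjusted p = 0.129), without the second resistant dBET6 library (-0.91, adjusted p = 0.0532) and in limma on FPKM. Scaled to total counts or to mitochondrial mRNA, FZD7 was also lower with dBET6 in parental cells (-0.73 and -1.87).

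DKK1 encodes a secreted antagonist that binds LRP co-receptors, and it is itself a known target of beta-catenin. The difference between the lines in response to dBET6 and to JQ1 was larger for DKK1 than for the other 9 genes on the TMM scale. Resistant cells had 2.4 and 1.74 CPM with dBET6, 13.1 and 13 with JQ1, and 6.5 and 5.95 with DMSO. Parental cells had 0.904 and 0.725 CPM with dBET6, 13.2 and 14 with JQ1, and 12.4 and 12.1 with DMSO. With DMSO the resistant libraries were therefore below the parental ones, with JQ1 they were just below them, and with dBET6 they were above them. The resistant to parental log2 fold change was 1.33 ± 0.27 with dBET6 (adjusted p = 0.000201), -0.06 with JQ1 (interval -0.31 to 0.19) and -0.97 ± 0.13 with DMSO (adjusted p = 4.77e-07). JQ1 raised DKK1 2.09-fold in resistant cells (adjusted p = 7.69e-08), while in parental cells it differed from DMSO by 0.15 on the log2 scale (interval -0.09 to 0.4). dBET6 lowered it 3.02-fold in resistant cells and 14.9-fold in parental cells (adjusted p = 7.33e-09 and 3.03e-16). The parental dBET6 libraries held 19 and 14 DKK1 counts, so the parental fold rests on few reads. The JQ1 responses differed by 0.91 ± 0.17 (adjusted p = 0.00133) and the dBET6 responses by 2.3 ± 0.3 (adjusted p = 1.73e-06). The dBET6 difference was past the threshold in each alternative that tested DKK1 (1.48 to 2.53; the 10 CPM filter removed the gene), whereas the JQ1 difference missed the threshold with mitochondrial scaling (0.63, adjusted p = 0.389) and in limma on log2 FPKM with a pseudocount of 0.1 or no filter (1.01 and 0.89, adjusted p = 0.0977 and 0.0759). With mitochondrial scaling the rise with JQ1 in resistant cells (0.48, adjusted p = 0.0698) and the difference between the lines with dBET6 (0.81, adjusted p = 0.059) also missed it, and DKK1 was then lower in resistant cells with JQ1 (-0.58, adjusted p = 0.0263). DKK1 shares 212 exon bases, or 9.61% of its exons, with the antisense gene PRKG1-AS1. Library strand was not given in the sources used here, so reads from these bases cannot be told apart.

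AXIN1 and CTNNB1 encode the scaffold of the destruction complex and the protein it destroys. AXIN1 had 8.11 and 5.67 CPM in resistant cells with dBET6, 24.6 and 25.8 with JQ1, and 24.4 and 25.1 with DMSO. Parental cells had 6.09 and 5.13 CPM with dBET6, 28.5 and 24.4 with JQ1, and 25.8 and 31.3 with DMSO. All 4 dBET6 libraries lay below the other 8, which fell together. dBET6 lowered AXIN1 by 1.85 ± 0.15 in resistant cells and by 2.34 ± 0.14 in parental cells (log2, adjusted p = 1.05e-11 and 8.12e-14), and with JQ1 the intervals were -0.22 to 0.26 and -0.35 to 0.13. In no treatment did the lines differ past the threshold, although mitochondrial scaling put AXIN1 lower in resistant cells with JQ1 (-0.58, adjusted p = 0.0202). Leaving out the first parental DMSO library or the second resistant dBET6 library also gave a call (-0.34 with DMSO, adjusted p = 0.0467, and 0.53 with dBET6, adjusted p = 0.0321). The difference between the dBET6 responses, 0.49 ± 0.21 (adjusted p = 0.0848), likewise passed without those libraries (0.63 and 0.74, adjusted p = 0.0284 and 0.015) and with size factors (0.55, adjusted p = 0.0469).

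CTNNB1 rose modestly with JQ1 in both lines. Resistant cells had 251 and 275 CPM with dBET6, 376 and 395 with JQ1, and 296 and 280 with DMSO. Parental cells had 245 and 231 CPM with dBET6, 319 and 358 with JQ1, and 266 and 235 with DMSO. JQ1 raised it 1.34-fold in resistant cells and 1.35-fold in parental cells (adjusted p = 0.000323 and 0.00018), but scaled to mitochondrial mRNA the differences were -0.16 and 0.15 (log2) and not past the threshold. dBET6 differed from DMSO by -0.13 (interval -0.32 to 0.05) in resistant cells and by -0.07 (interval -0.26 to 0.11) in parental cells, and scaled to total counts by -1.21 and -0.71. Testing only genes of at least 10 CPM turned these to 0.27 and 0.3 (adjusted p = 0.00379 and 0.00185), and with no filter they were -0.35 and -0.22 (adjusted p = 0.000553 and 0.0445), so the direction depends on the filter. The lines differed by 0.2 with DMSO (adjusted p = 0.0715), and the call was made without the first parental DMSO library (0.29, adjusted p = 0.0408), with total counts (0.27, adjusted p = 0.00771), with the 10 CPM filter (0.26, adjusted p = 0.00946) and on only the libraries compared (0.22, adjusted p = 0.0282). CTNNB1-202 held 69.9% and 61.8% of CTNNB1 TPM in resistant cells with dBET6, against 39.3% and 36.5% with DMSO, and 63.2% and 55.8% in parental cells with dBET6, against 42.2% and 40.6% with DMSO. CTNNB1-201, whose annotated length is 3729 bases against 3268 for CTNNB1-202, held 9.59% and 10.8% in resistant cells with dBET6, against 30% and 33.3% with DMSO, and 14.2% and 14.3% in parental cells with dBET6, against 24.5% and 29.3% with DMSO. In the JQ1 libraries CTNNB1-201 held 34.2% to 40.9%. Assignment of reads to transcripts that share most exons is estimated by kallisto, and no test was made of these shares.

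**Figure D2:**
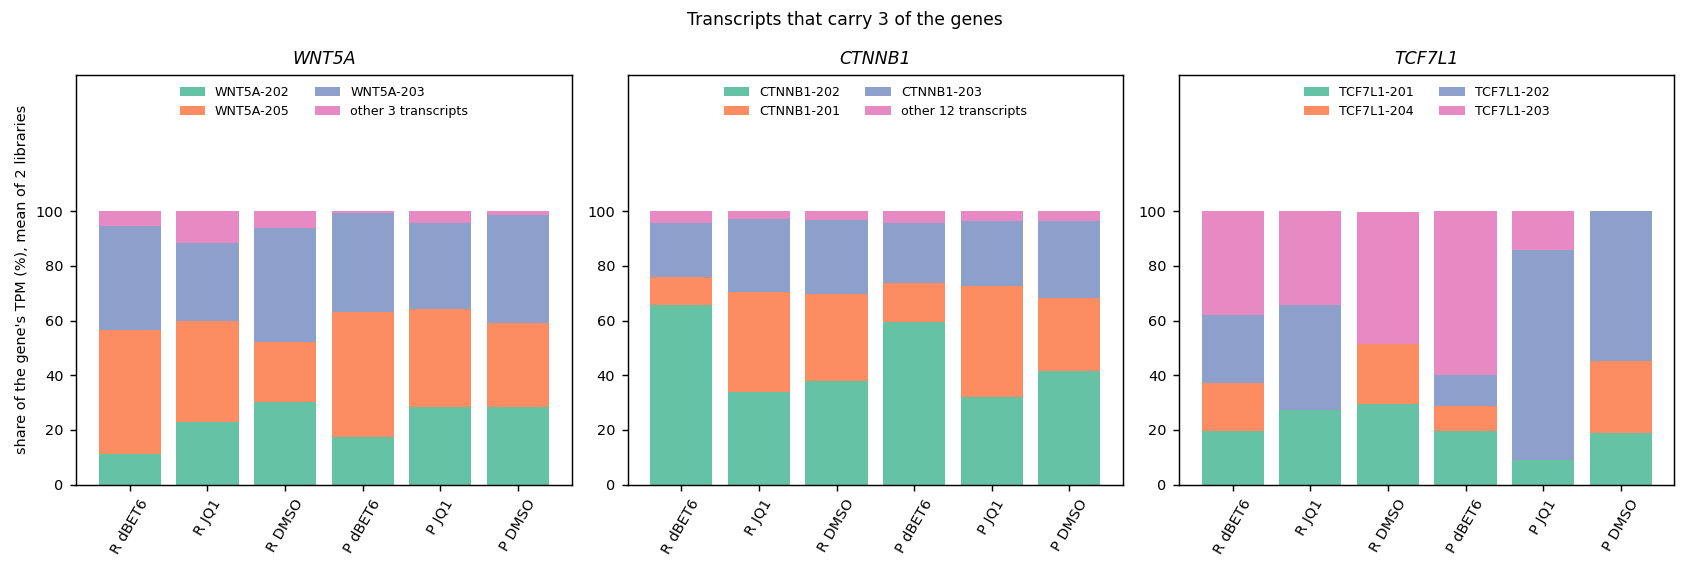
Share of each gene's TPM carried by its transcripts, as the mean of the 2 libraries of a group, resistant (R) cells left of parental (P) cells. The mean CTNNB1-202 share is 65.8% and 59.5% with dBET6 and at most 41.4% otherwise, and TCF7L1-203, annotated as a retained intron, is the main TCF7L1 transcript in parental cells with dBET6.

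TCF7 was higher in resistant cells at every treatment. Its product, TCF1, is best known from T cells and binds beta-catenin. Resistant cells had 326 and 329 CPM with dBET6, 94.3 and 98.7 with JQ1, and 182 and 181 with DMSO. Parental cells had 132 and 104 CPM with dBET6, 52.6 and 48.4 with JQ1, and 116 and 120 with DMSO. The lines did not overlap at any treatment. TCF7 was 2.77-fold higher in resistant cells with dBET6 (adjusted p = 1.05e-12), 1.91-fold with JQ1 (adjusted p = 9.55e-09) and 1.53-fold with DMSO (adjusted p = 5.6e-06). With mitochondrial scaling the JQ1 and DMSO differences kept their direction and missed the threshold (0.42 and 0.37, adjusted p = 0.077 and 0.163). The DMSO difference also missed it in limma on log2 of FPKM plus 1 with no filter (0.39, adjusted p = 0.074). With a pseudocount of 0.1 it passed (0.4, adjusted p = 0.027). JQ1 lowered TCF7 by 0.91 ± 0.09 in resistant cells and by 1.23 ± 0.1 in parental cells (log2, adjusted p = 7.51e-09 and 3.07e-11). dBET6 raised it by 0.85 ± 0.09 in resistant cells (adjusted p = 3.63e-09) on the TMM scale, but the sign turned to -0.22 with total counts and -1.21 with mitochondrial scaling. In parental cells dBET6 gave an interval of -0.2 to 0.19, and without the first parental dBET6 library -0.24 (adjusted p = 0.0218). Testing only genes of at least 10 CPM gave 0.36 there and limma on FPKM 0.28 and 0.29, whereas total counts gave -0.64 (adjusted p = 3.62e-07) and mitochondrial scaling -1.79 (adjusted p = 1.05e-17). The difference between the dBET6 responses was 0.86 ± 0.13 (adjusted p = 1.82e-05) and held with total counts (0.42) but not with mitochondrial scaling (0.58, adjusted p = 0.162). TCF7 counts are partial: transcripts that could be paired with the gene gave 0.745 to 0.943 of its deposited value. TCF7 shares 210 exon bases with SKP1 on the other strand.

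LEF1, which encodes a TCF family member that acts with beta-catenin, had 5.22 and 5.67 CPM in resistant cells with dBET6, 10.4 and 9.59 with JQ1, and 12 and 13.3 with DMSO. Parental cells had 3.38 and 1.81 CPM with dBET6, 6.21 and 5.72 with JQ1, and 10.8 and 11.2 with DMSO. It fell with dBET6 in both lines, by 1.21 ± 0.17 in resistant cells and 2.07 ± 0.18 in parental cells (log2, adjusted p = 2.58e-07 and 4.69e-11). JQ1 lowered it by 0.88 ± 0.15 in parental cells (adjusted p = 1.61e-05), while in resistant cells the difference was -0.34 ± 0.14 (adjusted p = 0.0564). That value stayed at -0.34 without either parental dBET6 library, but each of these fits put it past the threshold. It also passed the threshold with size factors (adjusted p = 0.0402), with no filter (0.0497) and on only the libraries compared (0.00436). With total counts it was -0.53 (adjusted p = 0.0044) and with mitochondrial scaling -0.91 (adjusted p = 0.000292). LEF1 was 2.08-fold higher in resistant cells with dBET6 and 1.67-fold with JQ1 (adjusted p = 0.000152 and 0.000275), and with DMSO the interval was -0.09 to 0.48 (log2). With mitochondrial scaling the first 2 differences were 0.55 and 0.23 and missed the threshold. The JQ1 difference also missed it in limma on log2 FPKM with a pseudocount of 0.1 (0.75, adjusted p = 0.057). With a pseudocount of 1 and no filter it missed it too (0.61, adjusted p = 0.0829). The dBET6 responses differed by 0.86 ± 0.25 (adjusted p = 0.011), which was 0.49 (adjusted p = 0.138) without the second parental dBET6 library and 0.43 (adjusted p = 0.189) with total counts. The JQ1 responses differed by 0.55 ± 0.21 (adjusted p = 0.117), and by 0.55 without either parental dBET6 library (adjusted p = 0.0455 and 0.0452). LEF1 shares 279 exon bases with LEF1-AS1, whose library values did not exceed 0.808 CPM.

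With dBET6 against DMSO and against JQ1, TCF7L1 rose and TCF7L2 fell in both lines. TCF7L1, whose product is mostly a repressor of Wnt targets, had 2.27 and 2.18 CPM in resistant cells with dBET6, 0.215 and 0.342 with JQ1, and 0.1 and 0.359 with DMSO. Parental cells had 6.66 and 5.96 CPM with dBET6, 0.25 and 0.236 with JQ1, and 0.346 and 0.294 with DMSO. Only the dBET6 libraries stood clear of a near-zero level. It was higher with dBET6 than with DMSO by 3.31 ± 0.4 in resistant cells and 4.28 ± 0.34 in parental cells (log2, adjusted p = 2.12e-08 and 6.63e-12), and higher by 1.28 and 2.52 with mitochondrial scaling. The DMSO groups held 20 counts in resistant and 27 in parental cells over 2 libraries, so these folds rest on few reads. In parental cells with dBET6, 59% and 61% of TCF7L1 TPM belonged to TCF7L1-203, a 715-base transcript annotated as a retained intron, against 18.3% and 21.1% for the full-length coding TCF7L1-201. In resistant cells with dBET6 the retained intron held 25.6% and 50.4% and TCF7L1-201 held 20.2% and 19%. With dBET6, TCF7L1 was lower in resistant than in parental cells by 1.5 ± 0.3 (adjusted p = 0.000149). In limma on log2 FPKM that difference missed the threshold with a pseudocount of 0.1 (-1.4, adjusted p = 0.07). It passed with a pseudocount of 1 and no filter (-1.13, adjusted p = 0.0038). With DMSO the difference of -0.53 (adjusted p = 0.394) became -1.65 (adjusted p = 0.045) without the second resistant DMSO library. The dBET6 responses differed by -0.97 ± 0.57 (adjusted p = 0.219), and by -1.66 (adjusted p = 0.0363) without the first resistant DMSO library.

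TCF7L2, which encodes TCF4, the main partner of beta-catenin in the gut, was lower in all 9 direct comparisons. Resistant cells had 0.618 and 0.561 CPM with dBET6, 1.43 and 1.02 with JQ1, and 3.9 and 3.06 with DMSO. Parental cells had 1.38 and 1.61 CPM with dBET6, 5.39 and 5.52 with JQ1, and 9.6 and 8.64 with DMSO. The libraries of the lines did not overlap at any treatment. The resistant to parental log2 fold change was -1.33 ± 0.35 with dBET6 (adjusted p = 0.0026), -2.15 ± 0.2 with JQ1 (adjusted p = 1.34e-09) and -1.38 ± 0.17 with DMSO (adjusted p = 1.36e-07). The dBET6 difference missed the threshold in limma on FPKM (-0.25, adjusted p = 0.256 with a mean of at least 1 and 0.307 with no filter, and -0.52, adjusted p = 0.148, with a pseudocount of 0.1). JQ1 lowered TCF7L2 2.85-fold in resistant cells and 1.67-fold in parental cells (adjusted p = 6.14e-07 and 0.000381). These responses differed by -0.77 ± 0.26 (adjusted p = 0.078). On only the libraries compared that difference was -0.79 (adjusted p = 0.0481), and in limma on log2 of FPKM plus 1 with no filter 0.18 (adjusted p = 0.979). dBET6 lowered TCF7L2 5.91-fold in resistant cells and 6.11-fold in parental cells (adjusted p = 6.2e-09 and 6.69e-12). The fall below the JQ1 level in resistant cells was -1.05 ± 0.34 (adjusted p = 0.00668). It missed the threshold in DESeq2 (-0.86, adjusted p = 0.0734) and without the first resistant JQ1 library (-0.84). In limma on log2 of FPKM plus 1 it was -0.33 (adjusted p = 0.0999 with a mean of at least 1 and 0.147 with no filter). In 1 library the paired transcripts gave only 0.624 of the deposited TCF7L2 value.

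AXIN2, which encodes a scaffold that feeds back on the pathway and is switched on by beta-catenin in many tissues, was low throughout. Resistant cells had 0.481 and 0.748 CPM with dBET6, 3.74 and 4.99 with JQ1, and 3 and 3.47 with DMSO. Parental cells had 0.571 and 0.311 CPM with dBET6, 3.17 and 2.71 with JQ1, and 2.24 and 2.25 with DMSO. The dBET6 libraries overlapped between the lines and lay below the other 8. dBET6 lowered AXIN2 5.18-fold in resistant cells and 5-fold in parental cells (adjusted p = 1.14e-07 and 3.32e-07). Libraries held 6 to 190 AXIN2 counts. With JQ1 the differences were 0.44 ± 0.2 (adjusted p = 0.0799) in resistant cells and 0.39 ± 0.21 (adjusted p = 0.135) in parental cells, and the first was 0.63 (adjusted p = 0.0438) without the first resistant JQ1 library. AXIN2 was 1.44-fold higher in resistant cells with DMSO (adjusted p = 0.0491) and 1.48-fold with JQ1 (adjusted p = 0.0314). With mitochondrial scaling these were 0.28 and 0.07 on the log2 scale (adjusted p = 0.498 and 0.854). In limma with no filter they were 0.16 and 0.46 (adjusted p = 0.829 and 0.209). Neither call was secure: leaving out any single DMSO or JQ1 library moved the DMSO p to between 0.0508 and 0.279, DESeq2 gave 0.221, and for JQ1 leaving out the first or second parental library or the second resistant library gave 0.0512, 0.181 and 0.391 (0.68, 0.46 and 0.32 on the log2 scale). AXIN2 also shares 1316 exon bases, 25.18% of its exons, with a protein-coding gene on the same strand, AC004805.1.

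**Figure D3:**
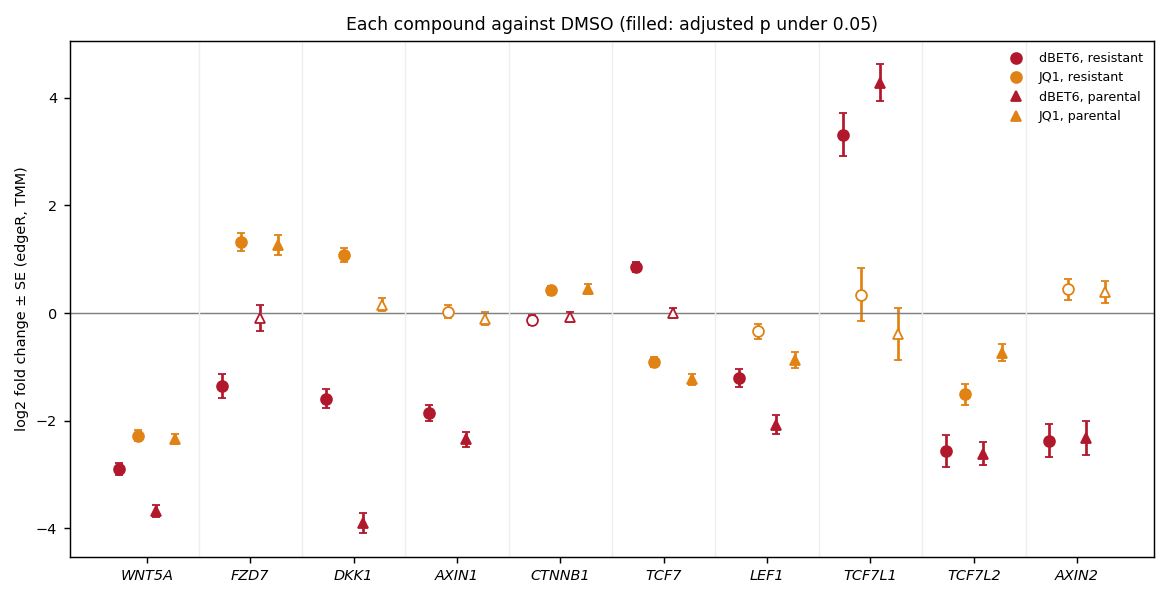
Log2 fold change with its SE of each gene for dBET6 and JQ1 against DMSO in resistant (circles) and parental (triangles) cells, filled where the adjusted p was under 0.05. WNT5A and TCF7L2 are below 0 in all 4 comparisons, and FZD7 is above 0 with JQ1 and, in resistant cells, below 0 with dBET6.

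With dBET6 against DMSO, 2 of the 10 genes rose and 7 fell in resistant cells, where 75.2% of all tested genes were called, 35.7% higher and 39.5% lower. In parental cells 1 rose and 6 fell, beside 76.3% of all genes (37.0% higher, 39.3% lower). With JQ1 against DMSO, 3 rose and 3 fell in resistant cells, beside 43.9% of all genes (20.8% higher, 23.1% lower). In parental cells 2 rose and 4 fell, beside 48.9% (22.8% higher, 26.1% lower). dBET6 against JQ1 gave 2 higher, TCF7 and TCF7L1, and 8 lower in each line, beside 74.2% of all genes in resistant cells (35.4% higher, 38.8% lower) and 74.6% in parental cells (36.2% higher, 38.4% lower). Between resistant and parental cells 4 were higher and 2 lower with dBET6, beside 44.0% of all genes (19.7% higher, 24.3% lower). With JQ1 4 were higher and 1 lower, beside 35.9% (16.8% higher, 19.0% lower), and with DMSO 3 were higher and 2 lower, beside 38.5% (17.4% higher, 21.2% lower). With mitochondrial scaling 1 was higher and 3 lower with JQ1, and 1 higher and 2 lower with dBET6 and with DMSO. The responses of the lines differed for 5 genes with dBET6, 4 higher and 1 lower in resistant cells, beside 27.9% of all genes (13.7% higher, 14.2% lower). With JQ1 they differed for DKK1 alone, beside 6.5% of all genes (3.62% higher, 2.88% lower). The median log2 fold change over the 10 genes for dBET6 was -1.48 in resistant cells and -2.2 in parental cells, beside -0.06 and -0.01 over all tested genes. With dBET6 against JQ1 the log2 fold change was -2.66 ± 0.17 for DKK1, -2.68 ± 0.21 for FZD7, -1.88 ± 0.15 for AXIN1 and 1.76 ± 0.1 for TCF7 in resistant cells. In parental cells it was -4.05 ± 0.19 for DKK1, -1.35 ± 0.22 for FZD7, -2.24 ± 0.14 for AXIN1 and 1.22 ± 0.1 for TCF7, and with mitochondrial scaling TCF7 was at 0.27 (adjusted p = 0.213) in resistant and -0.25 (adjusted p = 0.244) in parental cells. Between the lines 44.7%, 46.9% and 45.0% of called genes were higher in resistant cells with dBET6, JQ1 and DMSO, against 19.3%, 45.7% and 53.6% with total counts and 10.4%, 6.7% and 19.4% with mitochondrial scaling. For JQ1 against DMSO the share was 47.4% in resistant and 46.7% in parental cells, against 28.3% and 36.5% with total counts and 6.67% and 21.4% with mitochondrial scaling. For dBET6 against JQ1 it was 47.8% and 48.6%, against 26.2% and 32.9%, and 14.3% and 13.1%. For the differences in response it was 49.1% with dBET6 and 55.8% with JQ1, against 12.2% and 39.1%, and 14.2% and 17.3%. These comparisons share libraries (each DMSO group serves both compounds) and are not independent.

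**Figure D4:**
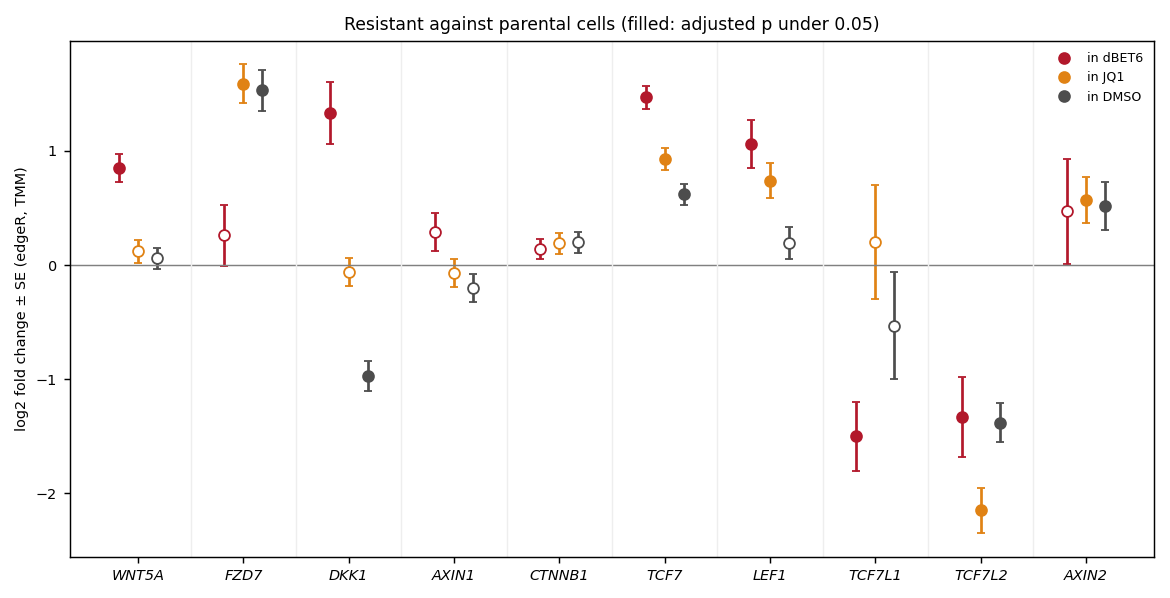
Log2 fold change with its SE of each gene in resistant against parental cells, with dBET6, JQ1 and DMSO, filled where the adjusted p was under 0.05. TCF7 is above 0 and TCF7L2 below 0 at all 3 treatments, while DKK1 is below 0 with DMSO and above 0 with dBET6.

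**Figure D5:**
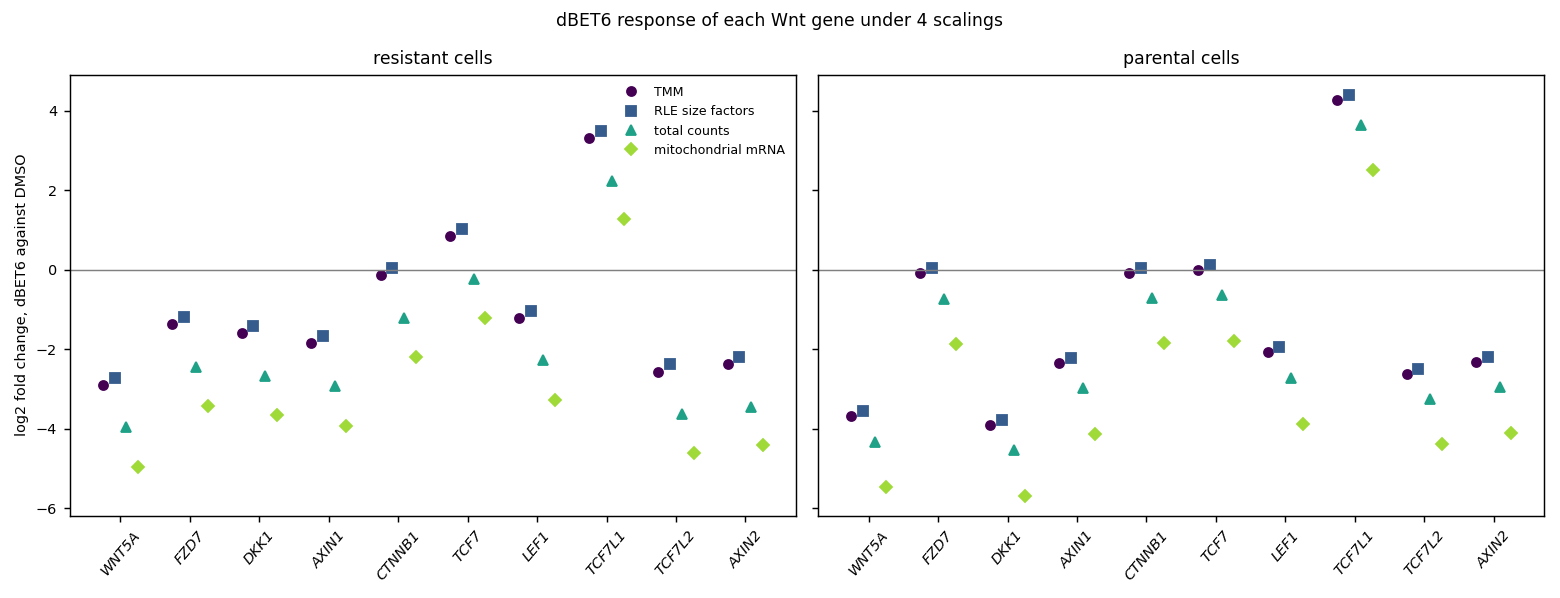
Log2 fold change of each gene with dBET6 against DMSO in resistant (left) and parental (right) cells under 4 scalings. WNT5A, DKK1, AXIN1, LEF1, TCF7L2 and AXIN2 stay below 0 under all 4, TCF7L1 stays above 0, and TCF7 in resistant cells crosses 0.

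Of 109 further pathway genes in 8 lists, 82 passed the filter on low counts. Only 8 of 18 listed Wnt ligand genes could be tested, and with JQ1 5 of them fell in resistant and 4 in parental cells (23.1% and 26.1% of all tested genes fell). With dBET6, 2 rose and 3 fell in resistant cells (35.7% and 39.5% of all genes) and 3 rose and 3 fell in parental cells (37.0% and 39.3%). WNT7A, among those tested, had 0.893 and 0.561 CPM in resistant and 0.618 and 0.362 in parental cells with dBET6. No library without dBET6 held more than 0.0461 CPM of WNT7A. It therefore passed the filter through the dBET6 libraries, and a rise of it carries no weight. WNT7B, a ligand of the canonical branch, had 12.7 and 11 CPM in resistant cells with dBET6, 42.9 and 46.3 with JQ1 and 108 and 106 with DMSO, and in parental cells 20.6 and 17.9, 127 and 111, and 200 and 230. It fell with JQ1 by 1.26 ± 0.1 and 0.86 ± 0.09 (log2) in resistant and parental cells, by 3.18 ± 0.12 and 3.48 ± 0.11 with dBET6, and was lower in resistant than in parental cells with DMSO by 1.01 ± 0.09. PORCN, which encodes the acyltransferase that every Wnt ligand needs for secretion, was higher with dBET6 and in resistant cells, and lower with JQ1. It had 313 and 311 CPM in resistant cells with dBET6, 64.3 and 64.5 with JQ1 and 81.7 and 84 with DMSO, and in parental cells 95.9 and 76.1, 18.4 and 17.2, and 41.9 and 40.6. It was higher in resistant than in parental cells by 1.86 ± 0.09 with dBET6, 1.85 ± 0.1 with JQ1 and 1.01 ± 0.09 with DMSO (adjusted p = 7.44e-15, 2.28e-14 and 1.32e-09). JQ1 lowered it by 0.36 ± 0.09 in resistant and 1.21 ± 0.1 in parental cells (adjusted p = 0.00189 and 6.97e-11). Its rise with dBET6 against DMSO, 1.91 ± 0.09 in resistant cells and 1.06 ± 0.09 in parental cells, turned to -0.15 and -0.72 with mitochondrial scaling.

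Among 12 tested receptors and co-receptors, 9 fell and 2 rose with dBET6 in resistant cells and 8 fell and 2 rose in parental cells. Of all tested genes 39.5% fell and 35.7% rose in resistant cells, and 39.3% fell and 37.0% rose in parental cells. The log2 fold change of FZD8, a Frizzled receptor, was -3.07 ± 0.14 and -2.97 ± 0.14, and PTK7 rose by 0.91 ± 0.1 and 0.62 ± 0.11, turning to -0.17 and -0.02 with total counts and to -1.16 and -1.15 with mitochondrial scaling. With JQ1, FZD3 rose by 1.42 ± 0.15 in resistant and 1.26 ± 0.17 in parental cells (adjusted p = 1.28e-08 and 4.14e-07). Between the lines with DMSO, 6 of the 12 were higher in resistant cells and 1 was lower, beside 17.4% and 21.2% of all genes. ROR1, which encodes a receptor for WNT5A, had 2.02 and 1.31 CPM in resistant cells with DMSO against 0.208 and 0.22 in parental cells, a log2 fold change of 2.95 ± 0.37 (adjusted p = 2.63e-07). RNF43, a ligase that removes Frizzled receptors from the cell surface, had 0.16 and 0.359 CPM in resistant cells with DMSO against 8.07 and 8.73 in parental cells, -5.04 ± 0.28 (adjusted p = 6.4e-14). DKK3 had 0.7 and 0.932 CPM in resistant cells with DMSO against 5.79 and 5.5 in parental cells, -2.8 ± 0.21 (adjusted p = 2.73e-11). For these 3 genes the direction between the lines with DMSO was the same with total counts and with mitochondrial scaling. RNF43 and DKK3 come from other lists than the receptors. With DMSO, 1 of 6 tested genes of the R-spondin list, which holds RNF43, was higher in resistant cells and 2 were lower. Of 5 tested antagonists, the list of DKK3, 0 were higher and 1 was lower, beside 17.4% and 21.2% of all genes.

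Of 19 tested genes of the cytoplasmic relay, 14 fell and 3 rose with dBET6 in resistant cells (39.5% and 35.7% of all genes) and 13 fell and 2 rose in parental cells (39.3% and 37.0%). PPP2R5E, which encodes a phosphatase subunit, fell by 3.17 ± 0.12 and 2.99 ± 0.11 (log2). Of 15 nuclear co-factors, 12 fell and 3 rose with dBET6 in each line, beside the same shares of all genes, and CREBBP, which encodes a histone acetyltransferase, fell by 2.64 ± 0.11 and 1.85 ± 0.1. AES, a shortened member of the Groucho family of co-repressors, rose by 1.71 ± 0.09 and 1.14 ± 0.09. Its sign turned to -0.35 and -0.63 with mitochondrial scaling. TLE2, also among those that rose, had 0.824 and 0.623 CPM in resistant and 0.428 and 0.518 in parental cells with dBET6. No library without dBET6 held more than 0.184 CPM of TLE2. It therefore passed the filter through the dBET6 libraries, and a rise of it carries no weight.

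The 14 tested genes known as beta-catenin targets in other cells moved in both directions. With dBET6 against DMSO, 9 rose and 5 fell in resistant cells (35.7% and 39.5% of all genes) and 6 rose and 8 fell in parental cells (37.0% and 39.3%). With DMSO, 9 were lower and 2 higher in resistant than in parental cells, beside 21.2% and 17.4% of all genes, EPHB2 being lower by 4.05 ± 0.13 (log2, adjusted p = 7.64e-19) and TNFRSF19 higher by 1.89 ± 0.14 (adjusted p = 2.53e-11). EPHB2 had 3.44 and 3.75 CPM in resistant cells and 57.8 and 61.5 in parental cells, and TNFRSF19 had 12.6 and 13.3 CPM in resistant cells and 3.64 and 3.33 in parental cells. MYC had 221 and 228 CPM in resistant cells with dBET6 against 55.7 and 52.9 with DMSO, a rise of 2.05 ± 0.09 (adjusted p = 1.22e-17), and 65.3 and 55.8 CPM in parental cells with dBET6 against 68.7 and 70 with DMSO (-0.19, adjusted p = 0.0458, and -0.07, adjusted p = 0.475, with size factors). MYC in resistant cells gave 0.97 with total counts and -0.02 with mitochondrial scaling. SP5 and AXIN2, both close targets of beta-catenin, were each higher in resistant cells with DMSO by under 1 on the log2 scale (0.6 ± 0.23 and 0.52 ± 0.21), beside LEF1 at 0.19. The AXIN2 value (edgeR adjusted p = 0.0491) was not secure, as described above. SP5 was at -0.17 in limma on log2 of FPKM plus 1.

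Levels can be set between genes on the FPKM scale, which is per length. With DMSO in parental cells CTNNB1 averaged 86.9 ± 7.28 FPKM, WNT5A 53.9 ± 0.817, TCF7 53.8 ± 0.808, DKK1 10.4 ± 0.362, AXIN1 9.06 ± 1.63, LEF1 5.56 ± 0.0694, TCF7L2 5.03 ± 0.795, AXIN2 0.921 ± 0.137, FZD7 0.526 ± 0.0785 and TCF7L1 0.456 ± 0.297 (SD, n = 2). WNT5A and TCF7 do not differ beyond their spread, nor do LEF1 and TCF7L2, nor DKK1 and AXIN1, nor FZD7 and TCF7L1. Differences between groups rest on counts, and FPKM enters them only as an alternative in limma and in the marker sums, because the ratio of TPM to FPKM ran from 0.435 to 0.584 in the dBET6 libraries and from 1.23 to 1.54 in the others.

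The genes whose level followed each member most closely over the 12 libraries, among 8471 protein-coding genes with a mean of at least 10 CPM, were taken by Pearson correlation of log2 CPM as a description, and the points share libraries and treatments. For AXIN2 they were POLR2H (0.991), MAST3 (0.988) and PRKG1 (0.987). For LEF1 they were PHLDA1 (0.975), NSDHL (0.974) and SPRED2 (0.973), and for DKK1 YBX3 (0.987), FBXO34 (0.985) and TRMT2A (0.983). For WNT5A, among 8470 genes, they were GPX8 (0.99), FMNL3 (0.989) and PALMD (0.987).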

How the data were processed

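RNA abundance had been measured in 12 libraries of 6 groups. The deposited estimated counts and TPM values per transcript are kallisto's, per the file headers and the submitters' processing notes. The deposited FPKM table holds 1 value per gene and library. The submitters' processing notes name kallisto, DESeq2 and build hg19, without versions or the way they were combined. Expected counts were summed per gene through GENCODE release 29, newer than the files (92.1% of 196354 transcripts paired), and rounded. Of 10511 genes, 82.0% were rebuilt within 1% of the deposited value.

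Testing used edgeR (4.0.16, R 4.3.3): filterByExpr left 19093 genes, TMM factors set the scale, and 1 robust quasi-likelihood fit held all 12 libraries with 6 residual degrees of freedom. Within each of 11 comparisons the p-values of all genes were corrected after Benjamini and Hochberg, with 0.05 as threshold, and log2 fold changes are treated over control, resistant over parental and dBET6 over JQ1. Intervals cover 95%. The scripts were tested on simulated data. Named were the 10 members, at most 2 genes per list and direction with the smallest p and a mean of at least 1 CPM, and the 3 genes most like 4 of the members. Values of these genes in comparisons where the rule did not pick them were added after they were seen. Members and lists were chosen with earlier results of these data known.

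Alternatives were size factors, total counts, mitochondrial mRNA scaling, DESeq2 (1.42.0), 2 other filters, limma (3.58.1) on log2 FPKM with pseudocounts of 1 and 0.1, only the libraries compared, a replicate block, and leaving out each library.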

Additional observations from a re-analysis of the deposited data

Results flagged for a closer look

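By the interaction term of the edgeR fit, the dBET6 response differed between resistant and parental cells for 5 of the 10 genes, beside 27.9% of all tested genes. The JQ1 response differed for DKK1 alone, beside 6.5% of all tested genes. For DKK1 the JQ1 response was higher in resistant cells by 0.91 on the log2 scale (adjusted p = 0.00133), and the dBET6 response by 2.3 (adjusted p = 1.73e-06). With mitochondrial scaling the JQ1 difference missed the threshold (0.63, adjusted p = 0.389), while the dBET6 difference passed it (2.02, adjusted p = 0.000156). For FZD7 the dBET6 response was lower in resistant cells, by -1.28 (adjusted p = 0.00411). That difference passed with mitochondrial scaling (-1.55, adjusted p = 0.00313) and missed the threshold in limma on FPKM. For LEF1, TCF7 and WNT5A the dBET6 response was higher in resistant cells on the TMM scale, by 0.86 (adjusted p = 0.011), 0.86 (adjusted p = 1.82e-05) and 0.79 (adjusted p = 0.000277). With mitochondrial scaling these differences were 0.61, 0.58 and 0.51 and missed the threshold (adjusted p = 0.255, 0.162 and 0.252). With total counts LEF1 (0.43, adjusted p = 0.189) and WNT5A (0.36, adjusted p = 0.0508) missed it, while TCF7 passed (0.42, adjusted p = 0.00503). LEF1 also missed it in limma on FPKM. No group held enough libraries for a search for single libraries that stand apart.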

How the results depend on the processing

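Over the 10 genes, 11 comparisons and the alternatives, 2329 values stayed on their side of the threshold, 61 were no longer past it, 40 came past it and 11 reversed. Of the 2329, at least 81 changed sign, with neither value past the threshold (values that round to 0 were not counted). The reversed values were, testing genes of at least 10 CPM, CTNNB1 with dBET6 in resistant and parental cells (0.27 and 0.3) and TCF7 with dBET6 in parental cells (0.36, and 0.28 and 0.29 in limma on FPKM). With total counts they were TCF7 with dBET6 in resistant cells (-0.22) and CTNNB1 between the lines with dBET6 (-0.22). With mitochondrial scaling they were TCF7 with dBET6 in resistant cells (-1.21), TCF7 with dBET6 against JQ1 in parental cells (-0.25), and AXIN1 and CTNNB1 with JQ1 in resistant cells (-0.55 and -0.16). The cause was not tested, beyond the shift of all genes that each scaling makes.

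With the 10 CPM filter, which left 4 members, the members called numbered 4 and 4 for dBET6 against DMSO in resistant and parental cells, 3 and 3 for JQ1, 2 and 4 for dBET6 against JQ1, 3, 2 and 2 between the lines with dBET6, JQ1 and DMSO, and 2 and 0 for the differences in response to dBET6 and JQ1. Of 8853 genes tested there, 3623 rose and 4246 fell with dBET6 in resistant cells, and 3673 and 4057 in parental cells. JQ1 gave 2743 and 2805, and 2928 and 2907. For dBET6 against JQ1 they were 3597 and 4292, and 3578 and 4133. Between the lines 3076 were higher and 2880 lower with dBET6, 2257 and 2324 with JQ1, and 2343 and 2277 with DMSO. The differences in response gave 2451 and 2048 with dBET6, and 578 and 650 with JQ1. With mitochondrial scaling the members called numbered 3 between the lines with dBET6, 3 with DMSO (4 with JQ1), and 2 and 0 for the differences in response to dBET6 and JQ1. Of all 19093 genes, 914 were then higher and 7912 lower between the lines with dBET6, 981 and 4073 with DMSO, and 546 and 7609 with JQ1. The differences in response gave 387 and 2340 with dBET6, and 58 and 277 with JQ1. In limma the difference in response to dBET6 gave 3 in each of 3 settings, the lines with JQ1 gave 3 with a pseudocount of 0.1 and 3 with no filter, the lines with DMSO gave 3 with no filter, and the difference in response to JQ1 gave 0 with either. Over 15598 genes the difference in response to dBET6 had 2189 higher and 1320 lower, and 2000 and 1289 with a pseudocount of 0.1. With no filter it had 1954 and 1297 of 40576. The lines with JQ1 had 1605 and 2099 with a pseudocount of 0.1, and 1269 and 1820 with no filter. The lines with DMSO had 1236 and 2211 with no filter. The difference in response to JQ1 had 146 and 90 with a pseudocount of 0.1, and 160 and 114 with no filter. In the edgeR fit that difference had 4 members at an unadjusted p under 0.05 (DKK1, LEF1, TCF7 and TCF7L2). Fitted on only the libraries compared it gave 3.

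Leaving out 1 library gave 9 to 9 members for dBET6 in resistant cells, 7 to 8 in parental cells, 6 to 7 and 6 to 6 for JQ1, 9 to 10 and 10 to 10 for dBET6 against JQ1, 6 to 7, 4 to 5 and 4 to 6 between the lines with dBET6, JQ1 and DMSO, and 4 to 6 and 1 to 2 for the differences in response to dBET6 and JQ1. Replicate numbers did not pair the libraries (correlations of -0.058 to 0.061 over 15 pairs of groups). With a replicate block AXIN2 between the lines with DMSO had an adjusted p of 0.0562 (0.52), leaving 4 members there, and no other call of the 10 genes changed. Depth limits TCF7L1, AXIN2, TCF7L2 and DKK1, with as few as 5, 6, 9 and 14 counts in a library.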
